A study of Mus musculus with 18 samples.

Results

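The 43 genes described here encode proteins that start mitosis, condense and attach chromosomes, build the spindle and separate the chromatids. They were found by matching 43 listed gene symbols to the Ensembl identifiers of the deposited count tables; all 43 were present among the 49315 identifiers counted, and all 43 were among the 18885 genes that passed the filter on low counts. They were grouped by role: 6 genes of CDK1 and its activators, 5 of the spindle checkpoint, 8 of the centromere and kinetochore, 13 of mitotic kinases, kinesins and spindle proteins, 7 of condensin, topoisomerase and Ki-67, and 4 of anaphase and exit. The hearts were dissected from C57BL/6 embryos labelled wild-type, and their RNA was sequenced at 5 stages, embryonic day (E) 9.5 with 3 libraries, E10.5 with 4, E12.5 with 4, E14.5 with 3 and E16.5 with 4. Each library is labelled as pooled male and female, and no treatment or altered allele is named for any stage. How many hearts or litters went into a library is not given in the sources used here, so a p-value here reflects how far these libraries scatter, and part of that scatter may be technical. The comparisons asked how expression of the mitotic genes changed from one stage to the next and over the whole series.

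Entry into mitosis is driven by the kinase CDK1 bound to cyclin A or B, after CDC25 phosphatases remove its inhibitory phosphates. The kinetochore, built on centromeric chromatin, then captures spindle microtubules while the checkpoint holds back the anaphase-promoting complex; when CDC20 is released, that complex marks securin and cyclin B for destruction and separase cuts the cohesin rings. In the developing heart, cardiomyocytes themselves divide together with endothelial, epicardial and mesenchymal cells, and transcripts of these genes peak in cells that are in G2 or mitosis.

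The libraries held between 30744015 and 45646538 counts, and 3 counts came to 0.0657 to 0.0976 CPM. Levels below are counts-per-million values (CPM) scaled by TMM factors, apart from the summed levels in this paragraph. Those sums, of cell type markers and macrophage-type transcripts, are CPM over library totals without TMM factors. All 8 cardiomyocyte markers were tested and none was at 0, with summed levels of 22995 to 39148 CPM; 4 were called higher and 3 lower at E16.5 against E9.5. The summed level of 6 fibroblast markers was 151 to 224 CPM at E9.5 and 3448 to 4471 CPM at E16.5, and all 6 were called higher at E16.5. That of 6 erythroid markers was 4877 to 7578 CPM at E9.5, 13867 to 42634 CPM at E12.5 and 299 to 631 CPM at E16.5, with 4 of 6 called lower and 1 higher, and no marker of either list was at 0 at any stage. Summed macrophage markers (4 of 6 called higher) went from 8.498 to 39.7 CPM at E9.5 to between 81.6 and 97.2 CPM at E16.5, summed endothelial markers (4 of 6 higher, 2 lower) stayed between 661 and 994 CPM throughout, and summed epicardial markers (4 of 6 higher, 1 lower) went from 113 to 146 CPM at E9.5 to between 257 and 348 CPM at E16.5. The sum of 4 hepatocyte markers was at most 4.15 CPM except for 54.3 CPM in replicate 2 of E9.5. The part of this changing cell makeup in the results was not tested, and in whole-heart RNA fewer dividing cells and less RNA per dividing cell cannot be told apart. In addition, 5 libraries stood apart from the rest: replicates 2 and 3 of E9.5, replicates 1 and 2 of E10.5 and replicate 4 of E12.5 held 0.582 to 2.75 CPM of 8 summed macrophage-type transcripts, against 341 to 689 CPM in the other 13. The summed macrophage markers at E9.5 also followed this split, with 8.498 and 9.08 CPM in replicates 2 and 3 and 39.7 CPM in replicate 1. No library of E16.5 stood apart, so stage and split are mixed in the rise of these markers. The 13867 CPM of erythroid markers at E12.5 was in replicate 4, and the others of that stage held 25688 to 42634 CPM. Counts over the 43 are therefore given for all 18 libraries and for those 13. Counts by role or pathway are also given for the 13 where they differ, except for the MuvB list, which has the median only. In the 13, E9.5 keeps 1 library and its spread is taken from the other stages.

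Expression of the mitotic genes fell in the course of heart development, although all 43 were still detected in every library of E16.5. At E16.5 against E9.5, 38 of the 43 genes were lower, 1 was higher and 4 did not pass the threshold (edgeR's quasi-likelihood test, Benjamini-Hochberg adjusted p under 0.05). Among all 18885 genes tested, 32.8% were lower and 32.1% higher in that comparison. The median log2 fold change of the 43 was -0.74, against -0.0052 over all genes tested. In the 13 libraries, 36 were lower and 1 higher, where 24.6% of all genes tested were lower and 26.5% higher, and the median was -0.73. By role, the counts at E16.5 against E9.5 differed there in the kinetochore genes (6 of 8 lower, without Nuf2) and in the chromosome structure genes (6 of 7 lower, without Mki67). The summed level of the 43 was 5364 to 5958 CPM at E9.5, 5192 to 5498 at E10.5, 4160 to 4512 at E12.5, 3629 to 4015 at E14.5 and 3254 to 3597 at E16.5. The sums at E9.5 and E10.5 overlapped, whereas every later stage lay wholly below the stage before it. Without TMM factors E12.5 and E14.5 overlapped too. There the 43 made up 0.402 to 0.453% of the counts at E12.5 and 0.379 to 0.425% at E14.5. Mean expression was highest at E9.5 for 36 genes, at E10.5 for 5 and at E16.5 for 2, and for 32 genes the stage mean was lower at each later stage than at the one before it.

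**Figure D1:**
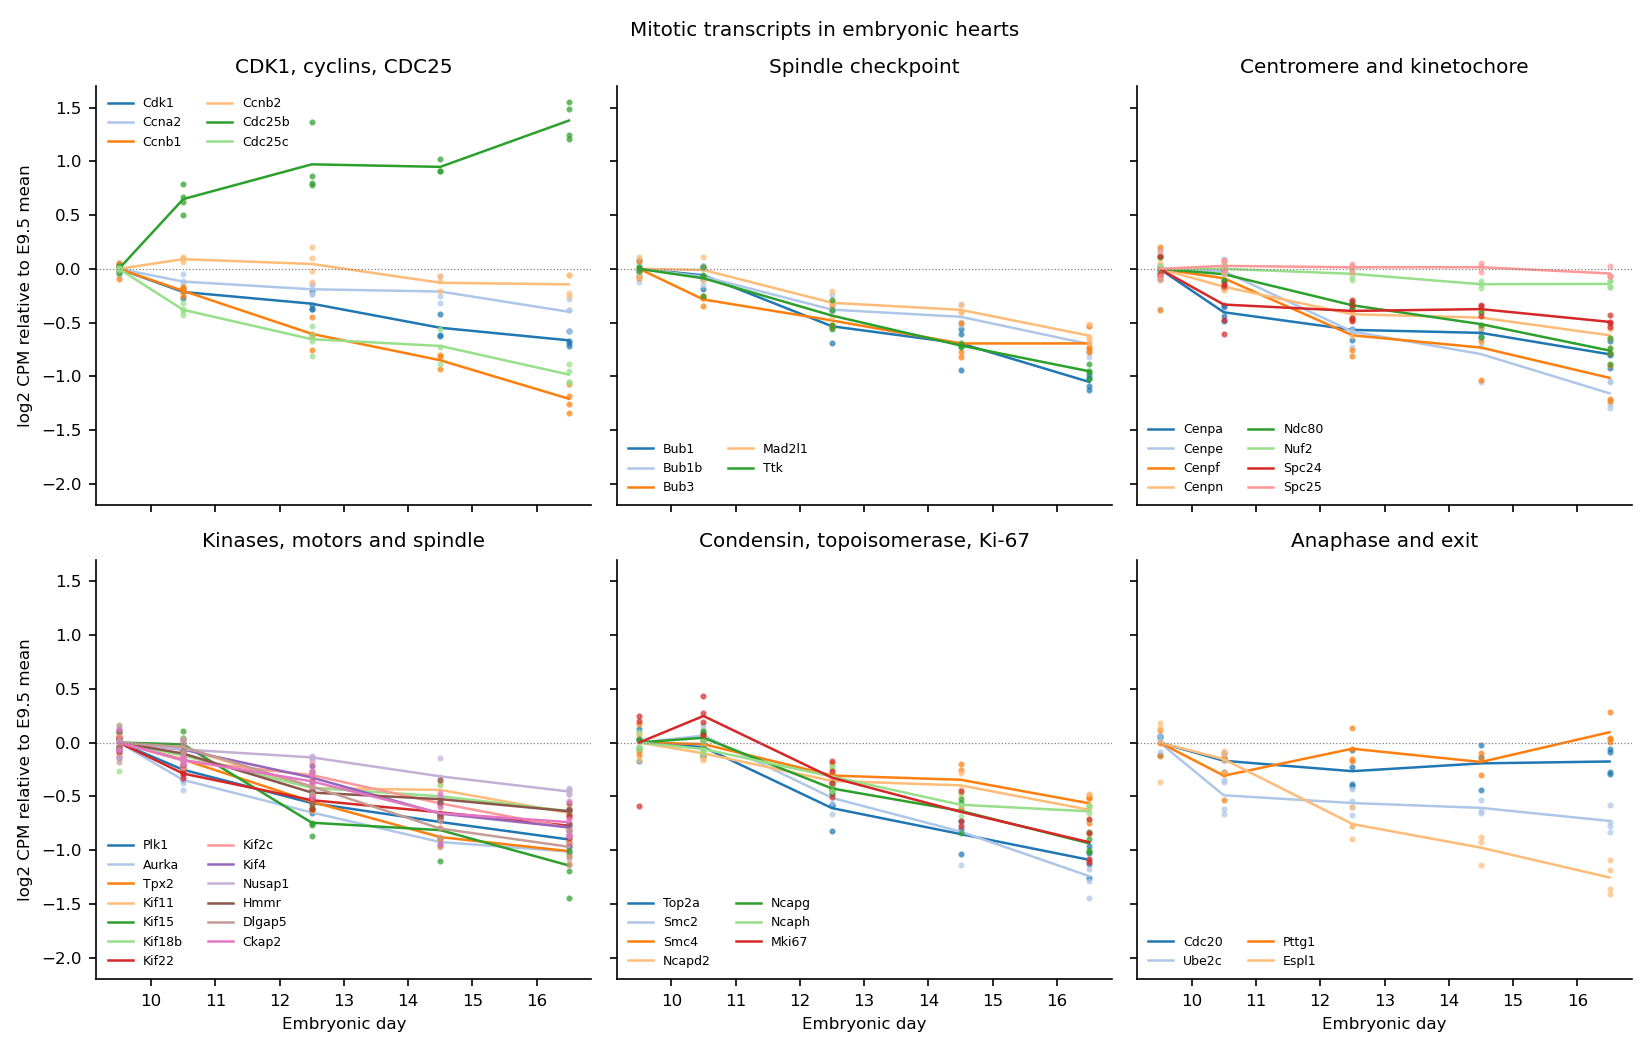
Level of each of the 43 mitotic genes relative to its E9.5 mean, in 6 panels by role; the x axis is the embryonic day, the y axis the log2 of CPM over the E9.5 mean, points are the 18 libraries and lines join the stage means. Most lines run downward, while Cdc25b climbs to a log2 fold change of 1.38 in the fitted model. Spc25, Pttg1, Nuf2, Ccnb2 and Cdc20 end between 88.5% (Cdc20) and 107% (Pttg1) of their E9.5 mean. On the way Pttg1 is lowest at E10.5 and Cdc20 at E12.5.

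**Figure D2:**
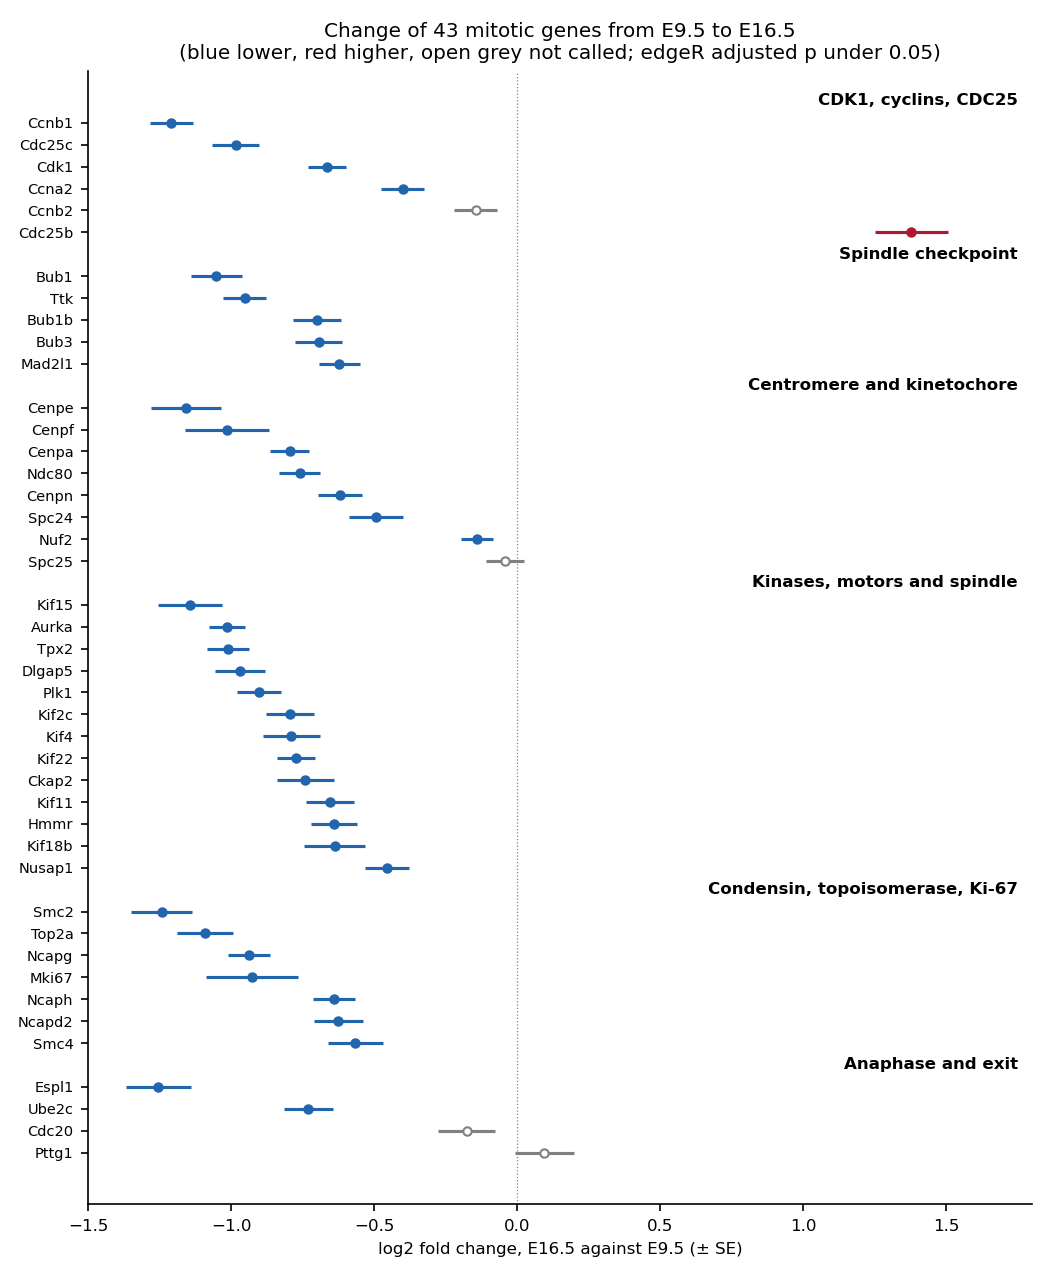
Fitted log2 fold change of E16.5 against E9.5 for each of the 43 genes, ordered within their role. Bars are 1 standard error, derived from edgeR's F statistic. Blue is lower, red higher and open grey not called. The points run from -1.25 for Espl1 to 1.38 for Cdc25b.

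Many genes of mitosis share 2 short promoter motifs, the cell cycle homology region TTTGAA, through which the DREAM and MuvB complexes act, and the CCAAT box bound by NF-Y. Promoters from RefSeq (build GRCm38.p6, 250 bases before to 50 after the start) were matched for 37 of the 43 genes, which have 38 promoters, since Bub3 appears more than once; Ccna2, Cdc25c, Dlgap5, Smc4, Spc24 and Tpx2 had no entry. TTTGAA, searched on both strands, was present in 29 of the 38 promoters (76.3%), against 17.9% of all 32851 promoters of the same length. Within 50 bases either side of the start it was present in 24 of 38 (63.2%), against 4.94% of all. In the 100 bases before the start it was present in 12 of 38 (31.6%), against 5.77% of all. CCAAT, also on both strands, was present in 30 of 38 (78.9%), against 37.4% of all, and no base belonged to matches of both motifs. In the same 2 smaller windows CCAAT was present in 19 (50%) and 25 (65.8%) of 38, against 13.6% and 18.9% of all. A match describes the letters only and does not show that a factor binds there.

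Shown first are upstream stretches of 4 genes that are lower at E16.5 and hold a TTTGAA match before the start: Smc2 (chr4:52439041-52439220, plus strand), Top2a (chr11:99024190-99024369, minus strand), Ncapg (chr5:45669745-45669918, plus strand) and Mki67 (chr7:135716380-135716559, minus strand). Cdc20 (chr4:118437353-118437523, minus strand) and Ccnb2 (chr9:70421555-70421734, minus strand) hold both motifs as well and were not called, and were chosen for printing after their values were seen. Each reads 5′ to 3′ on the strand of the gene, and capitals mark TTTGAA and CCAAT or their reverse complements TTCAAA and ATTGG.
Smc2: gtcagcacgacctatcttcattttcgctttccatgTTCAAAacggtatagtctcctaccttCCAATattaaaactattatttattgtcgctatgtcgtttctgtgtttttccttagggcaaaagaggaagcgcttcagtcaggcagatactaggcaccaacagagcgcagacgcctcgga
Top2a: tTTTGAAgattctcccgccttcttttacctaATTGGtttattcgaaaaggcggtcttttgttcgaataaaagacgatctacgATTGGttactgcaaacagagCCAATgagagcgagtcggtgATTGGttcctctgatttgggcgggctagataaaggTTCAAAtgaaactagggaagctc
Ncapg: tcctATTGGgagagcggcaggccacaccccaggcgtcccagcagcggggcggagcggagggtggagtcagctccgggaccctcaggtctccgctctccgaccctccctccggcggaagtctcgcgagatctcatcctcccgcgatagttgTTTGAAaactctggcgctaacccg
Mki67: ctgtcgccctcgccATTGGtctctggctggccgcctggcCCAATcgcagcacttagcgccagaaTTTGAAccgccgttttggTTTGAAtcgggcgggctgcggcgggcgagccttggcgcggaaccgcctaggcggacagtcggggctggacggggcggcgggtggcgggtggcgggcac
Cdc20: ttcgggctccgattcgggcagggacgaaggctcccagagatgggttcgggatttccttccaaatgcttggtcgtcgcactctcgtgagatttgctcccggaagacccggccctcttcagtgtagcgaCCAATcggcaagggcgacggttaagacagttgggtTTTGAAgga
Ccnb2: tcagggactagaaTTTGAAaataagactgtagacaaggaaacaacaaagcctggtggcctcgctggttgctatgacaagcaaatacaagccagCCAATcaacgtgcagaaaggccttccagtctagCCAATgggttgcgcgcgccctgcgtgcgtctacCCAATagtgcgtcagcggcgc
In Ccnb2 the CCAAT matches begin at positions -87, -54 and -21 from the transcription start, evenly spaced and all in the same direction. Top2a holds 4 CCAAT matches in both directions between its 2 TTTGAA matches. The 28 genes with TTTGAA had a median log2 fold change of -0.77 at E16.5 against E9.5, with 25 lower and 3 not called. Without it were 9 genes: Bub1, Ccnb1, Cdc25b, Cenpe, Mad2l1, Ncaph, Nuf2, Nusap1 and Pttg1, with a median of -0.62, 7 lower, 1 higher and 1 not called. Both sets therefore held mostly genes lower at E16.5, and their difference was not tested. Spc25 and Cdc20, whose levels at E9.5 and E16.5 overlapped, were among those with both motifs.

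Of the 6 genes of CDK1 and its activators, 4 were lower at E16.5 than at E9.5, 1 was higher and 1 was not called. Ccnb1 (chr13:100778650-100786570, minus strand), which encodes the main mitotic cyclin, stood at 234, 256 and 259 CPM at E9.5, 222, 220.0, 215 and 210.0 at E10.5, 162, 164, 148 and 183 at E12.5, 143, 141 and 131 at E14.5, and 98.4, 119, 105 and 110.2 at E16.5, in the order of the replicate numbers. Its libraries did not overlap between any stage and the next. The log2 fold change of E16.5 against E9.5 was -1.21 ± 0.08 (SE), with an edgeR adjusted p of 4.6e-11. Ccnb2 (chr9:70407692-70421547, minus strand), encoding the cyclin B found at the Golgi and not required for mouse development, stood at 85.8, 87.4 and 88.4 CPM at E9.5, 92.6, 93.6, 91.02 and 93.8 at E10.5, 80.1, 85.7, 100.3 and 93.6 at E12.5, 75.5, 83.04 and 80.6 at E14.5, and 74.6, 83.9, 72.99 and 83.9 at E16.5. All 4 libraries of E16.5 were below all 3 of E9.5, by a small margin, and the log2 fold change of -0.14 ± 0.08 (SE) was not called (edgeR adjusted p = 0.098). Cdk1 itself had a log2 fold change of -0.67 and Ccna2, cyclin A2, of -0.40, and both were called lower (edgeR adjusted p = 3.1e-08 and 0.00011).

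The phosphatases that activate CDK1 moved in opposite directions. Cdc25b (chr2:131186949-131198497, plus strand) encodes the form that acts at centrosomes at the onset of mitosis. It stood at 27.3, 28.3 and 28.4 CPM at E9.5, 43.002, 44.5, 48.4 and 39.6 at E10.5, 50.9, 47.9, 72.1 and 48.6 at E12.5, 56.8, 52.5 and 52.6 at E14.5, and 64.4, 66.2, 82.1 and 78.4 at E16.5. Every library of E10.5 exceeded every library of E9.5, and every library of E16.5 exceeded all of E14.5, whereas E12.5 overlapped with both E10.5 and E14.5, its replicate 3 standing above all libraries of either. Cdc25b was the only gene of the 43 called higher at E16.5 against E9.5, with a log2 fold change of 1.38 ± 0.13 (SE) and an edgeR adjusted p of 1.2e-08. A step is named here by its later stage and set against the stage before it. Between neighbouring stages Cdc25b rose by 0.65, 0.32 and 0.43 on the log2 scale at the E10.5, E12.5 and E16.5 steps (edgeR adjusted p = 0.00098, 0.028 and 0.017). The first pair of these calls was lost in the 13 libraries (log2 fold changes 0.69 and 0.37, adjusted p = 0.099 and 0.11), and the E12.5 step also without replicate 3 of E12.5. Cdc25c, which acts in the amplifying loop with CDK1, had a log2 fold change of -0.98 ± 0.08 (SE) (edgeR adjusted p = 2.9e-09). Some 2.47% of the exon bases of Cdc25b lie under the oppositely transcribed gene Spef1, and 12.7% of those of Cdc25c under the gene model Gm3550.

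All 5 checkpoint genes were lower at E16.5 than at E9.5, with a median log2 fold change of -0.70. Bub1 (chr2:127801122-127831865, minus strand), a kinase that recruits checkpoint proteins to kinetochores, stood at 104, 107 and 115 CPM at E9.5, 110.2, 109, 95.2 and 102 at E10.5, 74.4, 74.9, 67.04 and 83.3 at E12.5, 73.6, 71.5 and 56.3 at E14.5, and 49.7, 53.8, 54.9 and 51.03 at E16.5. Its E9.5 and E10.5 libraries overlapped, and all later ones lay below them. Bub1 had the largest change of the 5, -1.05 ± 0.09 (SE), with an edgeR adjusted p of 3.7e-09. Mad2l1 (chr6:66535390-66547220, plus strand), the checkpoint protein that binds CDC20, stood at 133, 117 and 121 CPM at E9.5, 133, 125, 117 and 115 at E10.5, 90.7, 99.4, 101 and 107 at E12.5, 93.7, 97.9 and 93.6 at E14.5, and 79.9, 76.7, 78.7 and 86.6 at E16.5. Its E12.5 and E14.5 libraries overlapped as did its E9.5 and E10.5 libraries, and the log2 fold change of E16.5 against E9.5 was -0.62 ± 0.07 (SE) (edgeR adjusted p = 3.2e-07). The kinases Ttk (MPS1) and Bub1b (BUBR1) had values of -0.95 and -0.70, and Bub3, their partner at kinetochores, of -0.69.

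Of the 8 centromere and kinetochore genes, 7 were lower at E16.5 and 1 was not called, and in the 13 libraries 6 were lower. Cenpe (chr3:135212537-135273611, plus strand), the kinesin that moves chromosomes to the spindle equator, stood at 76.2, 108 and 112 CPM at E9.5, 105, 104, 91.7 and 87.4 at E10.5, 65.2, 66.6, 59.6 and 71.9 at E12.5, 60.03, 63.4 and 47.4 at E14.5, and 41.2, 47.8, 47.6 and 40.3 at E16.5. Replicate 1 of E9.5 lay below both other libraries of that stage and below all 4 of E10.5, and replicates 2 and 3 are among the libraries that stood apart. The log2 fold change of E16.5 against E9.5 was -1.16 ± 0.12 (SE) with an edgeR adjusted p of 9.9e-08, and -0.78 with an adjusted p of 5.2e-05 in the 13 libraries. Cenpa, the histone H3 variant of centromeres, and Cenpf, a large outer kinetochore protein, had values of -0.79 and -1.01, and Cenpn, which reads the CENP-A nucleosome, of -0.62. Cenpf stood at 131, 184 and 197 CPM at E9.5, its replicate 1 being the lowest as for Cenpe, and its value was -0.63 with an adjusted p of 0.014 in the 13 libraries.

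The 4 subunits of the NDC80 complex, which forms the microtubule attachment itself, ranged from a clear decline to no call, and the differences between subunits were not tested. Spc25 (chr2:69193895-69206194, minus strand) stood at 71.4, 60.7 and 59.1 CPM at E9.5, 66.8, 61.9, 63.5 and 67.5 at E10.5, 65.6, 62.5, 64.9 and 64.4 at E12.5, 65.9, 62.4 and 64.8 at E14.5, and 60.8, 60.8, 60.8 and 64.9 at E16.5. The libraries of all 5 stages overlapped, and the log2 fold change of -0.043 ± 0.07 (SE) was not called (edgeR adjusted p = 0.58); in the 13 libraries it was -0.20 with an adjusted p of 0.066. Ndc80 was lower by a log2 fold change of -0.76 ± 0.07 (SE) (edgeR adjusted p = 1.8e-08), from 52.97 ± 3.80 (SD) CPM with n = 3 to 31.3 ± 2.13 (SD) CPM with n = 4. Nuf2, which forms a dimer with NDC80, stood at 59.7 ± 1.64 (SD) and 54.2 ± 1.23 (SD) CPM at those stages. Its value of -0.14 ± 0.06 (SE) was just past the threshold (edgeR adjusted p = 0.034) and lost its call in 10 of 16 alternative analyses (other scalings, filters, tests and sets of libraries), among them the 13 libraries (-0.091, adjusted p = 0.41). Spc24, the dimer partner of SPC25, had a log2 fold change of -0.49 (edgeR adjusted p = 0.00015), and of -0.33 at the E10.5 step alone (edgeR adjusted p = 0.019). Its E10.5 libraries that stood apart were at 49.4 and 45.1 CPM and the other pair at 61.5 and 62.4 CPM.

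**Figure D3:**
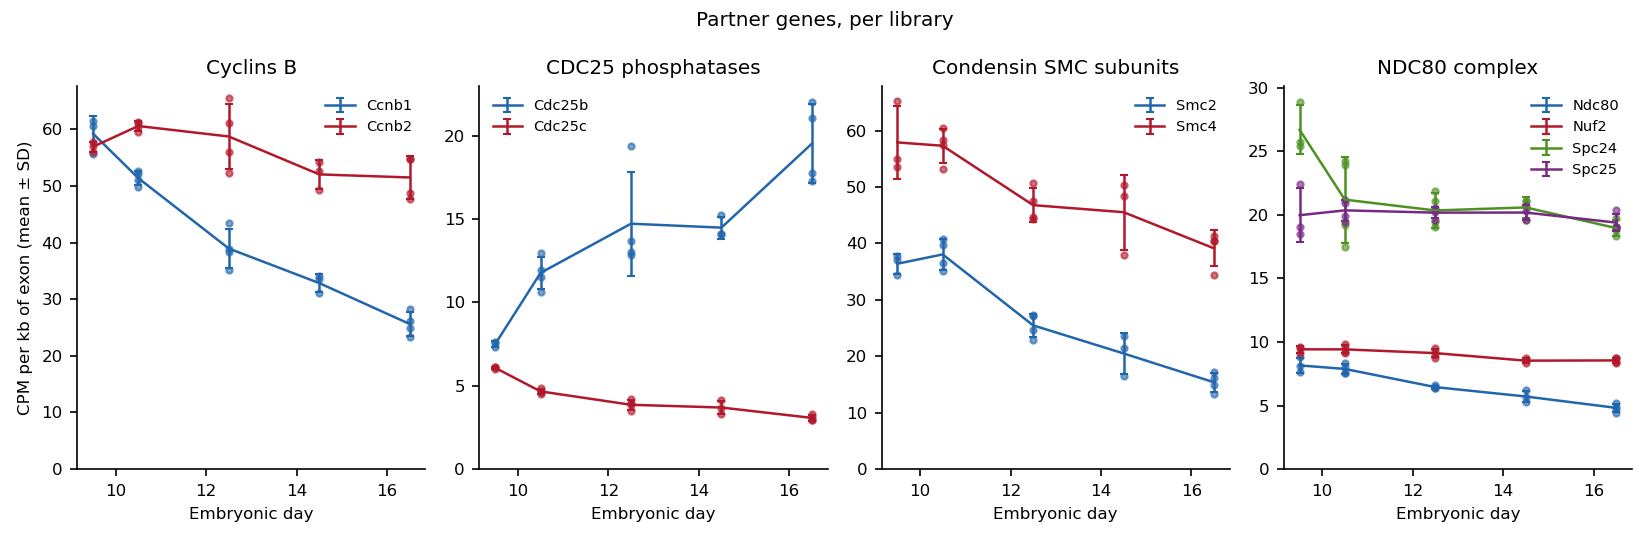
CPM per kilobase of exon (y axis, linear) by embryonic day (x axis) for partner genes in 4 panels, with a point for each library and lines through the stage means with bars of 1 SD; the pairs were chosen after their values were seen. Cdc25b and Cdc25c draw apart, from a ratio of 1.24 at E9.5 to 6.37 at E16.5, and the lines of Ccnb1 and Ccnb2 cross, from 1.04 to 0.498.

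Per kilobase of exon, the ratio of Ccnb1 to Ccnb2 was 1.04 ± 0.041 (SD, n = 3) at E9.5 and 0.498 ± 0.023 (SD, n = 4) at E16.5. Ccnb2 thus went from about the level of Ccnb1 per kilobase of exon to the higher of the pair, while its own change was not called. The length here is that of all annotated exons of a gene merged, so the order within a pair depends on it. In mean CPM, Ccnb1 was the higher at both stages, at 249.7 against 87.1 at E9.5 and 108 against 78.8 at E16.5. The ratio of Cdc25b to Cdc25c was 1.24 ± 0.017 (SD, n = 3) at E9.5 and 6.37 ± 0.86 (SD, n = 4) at E16.5. The ratio of Ndc80 to Spc25 was 0.410 ± 0.023 (SD, n = 3) and 0.249 ± 0.024 (SD, n = 4), and that of Nuf2 to Spc25 was 0.476 ± 0.059 and 0.441 ± 0.011. Libraries of E9.5 and E16.5 did not overlap for the first 3 of these ratios but did for Nuf2 to Spc25, and as the pairs were picked for their values no test was made.

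All 13 genes of mitotic kinases, motors and spindle proteins were lower at E16.5 than at E9.5, with a median log2 fold change of -0.79. Kif15 (chr9:122951046-123018733, plus strand), a kinesin that helps to keep spindle poles apart, stood at 50.4, 50.1 and 54.96 CPM at E9.5, 53.4, 55.7, 46.6 and 49.1 at E10.5, 30.8, 30.5, 28.4 and 33.9 at E12.5, 32.7, 31.5 and 24.2 at E14.5, and 22.6, 26.5, 25.8 and 18.95 at E16.5. Its largest drop lay between E10.5 and E12.5, where no library of one stage reached the other. Its log2 fold change at that step was -0.73 ± 0.10 (SE) (edgeR adjusted p = 1.9e-05), and that of E16.5 against E9.5 was -1.14 ± 0.11 (SE) (edgeR adjusted p = 2.9e-08). Nusap1 (chr2:119618298-119651244, plus strand), which bundles microtubules near chromosomes, stood at 97.8, 82.3 and 90.9 CPM at E9.5, 87.5, 85.1, 80.7 and 92.3 at E10.5, 81.4, 82.4, 82.7 and 81.9 at E12.5, 81.8, 72.1 and 63.97 at E14.5, and 64.97, 64.98, 67.2 and 66.4 at E16.5. Its neighbouring stages all overlapped, and only the whole interval gave a call, with a log2 fold change of -0.46 ± 0.08 (SE) and an edgeR adjusted p of 3.1e-05.

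Among the others of this role, Aurka, the kinase of spindle poles, and Tpx2, its activator on microtubules, both had log2 fold changes of -1.01 (edgeR adjusted p = 3.4e-11 and 3.7e-10). Aurka was called lower at each of the first 3 steps, with values of -0.35, -0.30 and -0.27, and was at -0.088 at the last, which was not called. Dlgap5, another microtubule-bound spindle protein, and Plk1, the polo kinase, had values of -0.97 and -0.90. The kinesins gave -0.79 for Kif4 and -0.79 for Kif2c, which acts on chromosome arms and on microtubule ends respectively, -0.77 for the chromosome-bound Kif22, -0.65 for Kif11, which pushes spindle poles apart, and -0.64 for Kif18b. In the 13 libraries the value of Kif18b was -0.36 with an adjusted p of 0.03. Ckap2 and Hmmr, both microtubule-associated, had values of -0.74 and -0.64. Exons of Pdzd11 on the other strand cover 15.1% of the exon bases of Kif4.

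All 7 genes of chromosome structure were lower at E16.5 in the 18 libraries, with a median log2 fold change of -0.93, and 6 of 7 in the 13, with a median of -0.73. Smc2 (chr4:52439243-52488260, plus strand) encodes the ATPase present in both condensin complexes. It stood at 189, 204 and 206 CPM at E9.5, 224, 218, 193 and 200.1 at E10.5, 135, 149, 125 and 149 at E12.5, 129.5, 117 and 90.4 at E14.5, and 81.6, 88.5, 93.9 and 73.1 at E16.5. E9.5 and E10.5 overlapped, and every library of E12.5 and later lay below them. The log2 fold change of E16.5 against E9.5 was -1.24 ± 0.11 (SE) with an edgeR adjusted p of 4.0e-09. Smc4 (chr3:69004738-69034623, plus strand), its obligate partner, stood at 340.3, 279 and 286 CPM at E9.5, 315, 304, 277 and 299 at E10.5, 264, 231, 233 and 247 at E12.5, 262, 252 and 198 at E14.5, and 211, 211, 215 and 179 at E16.5. Its log2 fold change was -0.57 ± 0.10 (SE) (edgeR adjusted p = 3.9e-05), and no library of E16.5 reached E9.5. The ratio of Smc2 to Smc4 per kilobase was 0.636 ± 0.094 (SD, n = 3) at E9.5 and 0.393 ± 0.019 (SD, n = 4) at E16.5.

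The condensin I subunits Ncapg, Ncaph and Ncapd2 had log2 fold changes of -0.94, -0.64 and -0.63. Top2a, the topoisomerase that untangles sister DNA, went from 517 ± 52.95 (SD) CPM with n = 3 to 243 ± 21.3 (SD) CPM with n = 4, a log2 fold change of -1.09 ± 0.10 (SE) (edgeR adjusted p = 7.3e-09). Mki67, the proliferation antigen that coats mitotic chromosomes, stood at 234, 406 and 418 CPM at E9.5, 425, 476, 402 and 369 at E10.5, 248, 271, 312 and 292 at E12.5, 213, 258 and 206 at E14.5, and 166, 216, 197 and 163 at E16.5. Replicate 1 of E9.5 was far below replicates 2 and 3 of that stage, which are among the libraries that stood apart, and lay within the range of E14.5. The log2 fold change of E16.5 against E9.5 was -0.93 ± 0.16 (SE) (edgeR adjusted p = 7.5e-05), but -0.33 with an adjusted p of 0.088 in the 13 libraries, which ends the call. In those libraries Mki67 was instead called higher at the E10.5 step, by 0.72 with an adjusted p of 0.025.

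Of the 4 genes of anaphase and mitotic exit, 2 were lower at E16.5 and 2 were not called. Espl1 (chr15:102296266-102324357, plus strand), which encodes separase, stood at 70.6, 99.9 and 103 CPM at E9.5, 81.4, 84.9, 86.1 and 75.2 at E10.5, 53.3, 53.3, 49.1 and 60.04 at E12.5, 41.5, 49.5 and 47.9 at E14.5, and 35.5, 42.8, 40.1 and 34.4 at E16.5. Replicate 1 of E9.5 was again below replicates 2 and 3, and E12.5 and all later stages lay below both earlier ones. Its log2 fold change of -1.25 ± 0.11 (SE) was the lowest of the 43 in the 18 libraries (edgeR adjusted p = 8.5e-09), and it was -0.88 with an adjusted p of 6.5e-06 in the 13 libraries, where Smc2 (-1.16) and Ccnb1 (-1.11) were among those below it. Pttg1 (chr11:43420250-43426251, minus strand), which encodes securin, the inhibitor of separase, stood at 25.9, 21.97 and 23.8 CPM at E9.5, 19.5, 16.48, 19.6 and 21.7 at E10.5, 22.9, 21.5, 26.3 and 21.2 at E12.5, 19.4, 21.5 and 22.3 at E14.5, and 24.7, 24.01, 24.5 and 29.1 at E16.5. These libraries of E9.5 and E16.5 overlapped, with a log2 fold change of 0.10 ± 0.10 (SE) that was not called (edgeR adjusted p = 0.43). Pttg1 was called lower at the E10.5 step (-0.31, adjusted p = 0.04) and higher at the E12.5 step (0.25, adjusted p = 0.042), and these calls were lost in 9 of 17 and 10 of 18 alternative analyses, among them the 13 libraries.

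Cdc20 (chr4:118432901-118437352, minus strand), the activator of the anaphase-promoting complex, stood at 140.5, 158 and 159.7 CPM at E9.5, 138, 142, 137 and 126 at E10.5, 115, 117, 131 and 145 at E12.5, 112, 139 and 149.8 at E14.5, and 126, 147, 124 and 143 at E16.5. Neighbouring stages all overlapped, and the log2 fold change of E16.5 against E9.5 was -0.18 ± 0.10 (SE), which was not called (edgeR adjusted p = 0.13). Ube2c, the ubiquitin-conjugating enzyme of the same complex, was at 264 ± 14.52 (SD) CPM with n = 3 at E9.5, 188 ± 21.3 (SD) with n = 4 at E10.5 and 159 ± 11.9 (SD) with n = 4 at E16.5. Most of its decline came first, with -0.49 ± 0.09 (SE) at the E10.5 step (edgeR adjusted p = 0.00044). It was the only call of that step kept in all 17 alternative analyses. Of its exon bases, 22.8% lie under Tnnc2 on the other strand. Per kilobase of exon, Ube2c (101.5 CPM per kb) and Cdc20 (81.8) were the highest of the 43 at E9.5, and Cdc20 (72.3) passed Ube2c (61.2) at E16.5. Kif15 was the lowest at both stages, with 4.70 and 2.13 CPM per kb. These orders depend on the merged exon lengths used.

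Of the 4 steps between neighbouring stages, which are not of equal length in days, that from E10.5 to E12.5 held the most calls. At E10.5 against E9.5, 10 of the 43 genes were lower and 1 higher, where 7.62% of all genes tested were lower and 10.6% higher, and the median log2 fold change was -0.088. The 10 were Cdk1, Cdc25c, Bub3, Cenpa, Spc24, Plk1, Aurka, Kif22, Ube2c and Pttg1, and none of the 7 chromosome structure genes was among them. In the 13 libraries 1 was lower (Ube2c) and 1 higher (Mki67), against 1.18% and 4.93% of all genes. Among the libraries that stood apart are 2 of 3 at E9.5 and 2 of 4 at E10.5, and within the 5 alone 14 of the 43 were lower and 2 higher at this step, against 15.5% and 19.4% of all genes.

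At E12.5 against E10.5, 30 of the 43 were lower and 2 higher, where 18.1% of all genes tested were lower and 20% higher. The median log2 fold change was -0.29, against 0.013 over all genes, and in 29 of the 43 all 4 libraries of E12.5 lay below all 4 of E10.5, as in 18.7% of all genes. All 5 checkpoint genes and all 7 chromosome structure genes were lower, with 10 of 13 spindle, 5 of 8 kinetochore, 2 of 6 entry and 1 of 4 exit genes. The calls of Bub3, Smc4, Kif4 and Cenpa were lost in the 13 libraries, where 4 of 5 checkpoint, 6 of 7 chromosome structure, 9 of 13 spindle and 4 of 8 kinetochore genes were lower. Over all roles 26 were lower there and none higher, against 13% and 15% of all genes, with a median of -0.30. Of the 32 calls, 19 were kept in every one of the 18 alternative analyses.

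At E14.5 against E12.5, 9 of the 43 were lower and none was higher, against 8.56% and 6.29% of all genes. They were Cdk1, Ccnb1, Ttk, Aurka, Tpx2, Kif2c, Kif4, Dlgap5 and Ncaph. Aurka, Tpx2 and Dlgap5 kept their calls in all 16 alternative analyses, and 4 of the 43 were lower and none higher in the 13 libraries, against 7.85% and 7.3% of all genes. At E16.5 against E14.5, 12 were lower and 1 (Cdc25b) higher, against 8.74% and 10.1% of all genes; in the 13 libraries 14 were lower and 2 higher, against 9.83% and 12.8%. The 12 held 4 of the 5 checkpoint genes (Bub1, Bub1b, Mad2l1 and Ttk), 3 kinetochore genes (Cenpa, Cenpe and Ndc80), Ccnb1, Cdc25c, Kif15, Smc2 and Ncapg. Of these calls only that of Ccnb1 was kept in all 16 alternatives: without replicate 1 or replicate 2 of E14.5 the count of the 43 called was 2 or 1, and without replicate 3 of E14.5 it was 17.

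**Figure D4:**
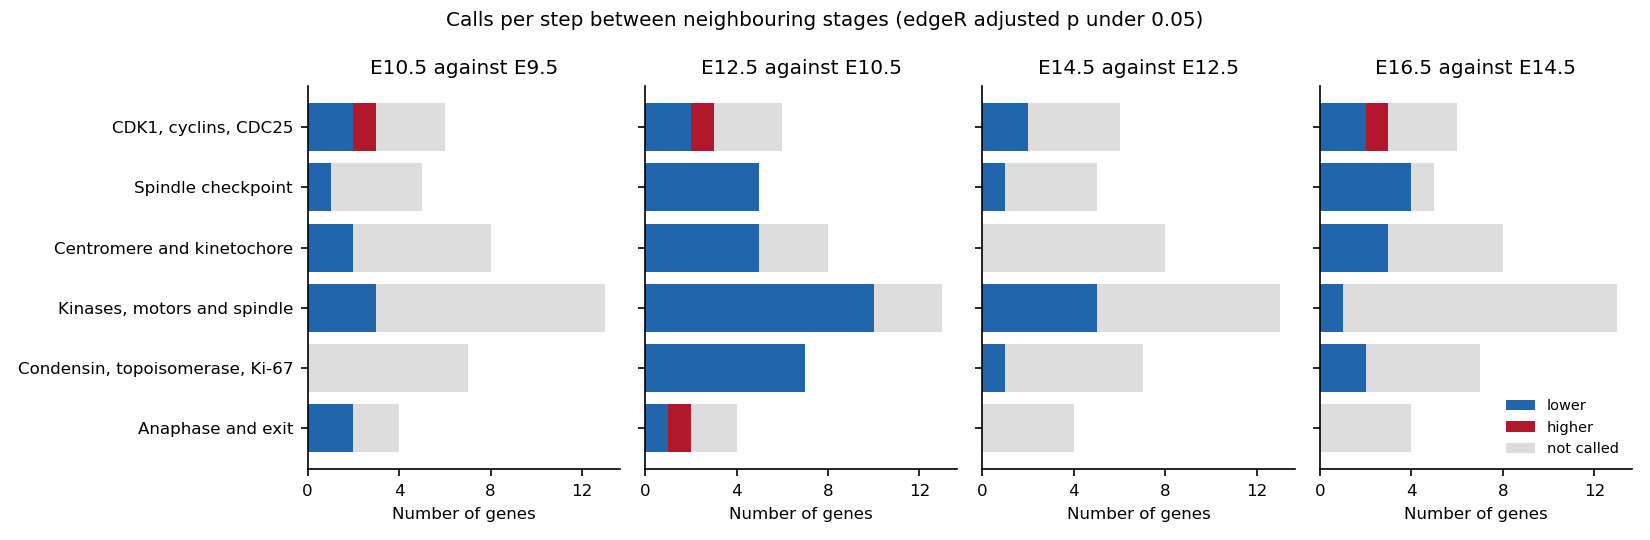
Number of mitotic genes called lower, higher or not called at each of the 4 steps between neighbouring stages (panels), by role (rows), from edgeR at an adjusted p under 0.05. The E12.5 step holds the most calls, 30 lower and 2 higher, and includes all 5 checkpoint and all 7 chromosome structure genes; in the 13 libraries, which are not plotted, 4 of 5 and 6 of 7 of these were lower.

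The change went with the length of the gene at some of the steps. At E12.5 against E10.5, the Spearman correlation between exon length and log2 fold change was -0.63 across the 43 genes, against -0.11 across 18833 genes tested with a length. At E16.5 against E14.5 it was -0.58, against -0.011, and at E10.5 against E9.5 it was 0.40, against 0.15. At E14.5 against E12.5 it was -0.22, against -0.094, and over the whole interval it was -0.48, against -0.025, but -0.27 in the 13 libraries, against 0.042. The GC percent of the longest transcript had a correlation larger in size than that of length at the E10.5 step, -0.49 across the 43 and -0.12 across all genes, but one of 0.018 across the 43 in the 13 libraries. At the other steps it ran from 0.043 to 0.35 across the 43. These describe genes measured in the same libraries, which are not independent points. Of the 20 genes with more than 4919 bases of exon, 18 were lower at the E12.5 step, and of the 23 shorter ones, 12 were. The 4 genes not called and the 1 higher at E16.5 against E9.5 (Ccnb2, Spc25, Cdc20, Pttg1 and Cdc25b) were all among the shorter. Length also went with the libraries that stood apart: with that split as a term beside the stage, the correlation of length with the difference was 0.56 across the 43 and 0.31 across all genes. In that fit Mki67 (0.34), Cenpe (0.29), Espl1 (0.22) and Kif11 (0.18) were higher and Spc24 (-0.25) lower in the libraries that stood apart, against 10.1% and 11.6% of all genes. In the 13 libraries the correlation at the E12.5 step was -0.55, against -0.072 across all genes.

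**Figure D5:**
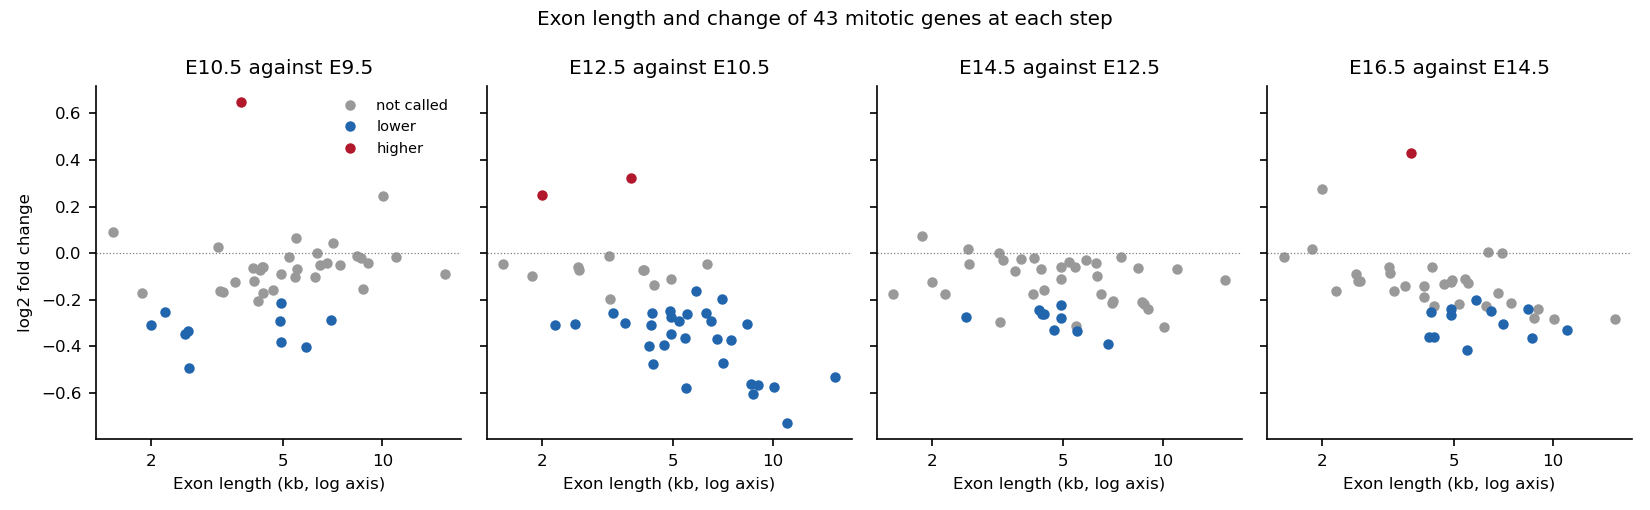
Exon length (kilobases, log axis) against the fitted log2 fold change of each of the 43 genes at the 4 steps between neighbouring stages; colour marks the call. At the E12.5 and E16.5 steps the longer genes lie lower, and at the E10.5 step the genes called lower are mostly short.

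Log2 levels were standardized for each gene over the 18 libraries. There 36 of the 43 genes had a Pearson correlation of at least 0.827, the value of Nuf2, with the mean of the other 42. The exceptions were Cdc25b (-0.89), Pttg1 (-0.41), Spc25 (0.17), Cdc20 (0.36), Spc24 (0.61), Ccnb2 (0.64) and Ube2c (0.76). After the stage means were removed, Kif4 (0.83), Ccnb1 (0.83) and Kif2c (0.79) still followed the other genes most closely from library to library, whereas Spc24 (-0.42), Pttg1 (-0.34) and Spc25 (-0.33) went against them. These correlations share library depth and composition and are a description only. With the stage means removed they still hold the split of the libraries that stood apart, and its part in them was not tested.

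Other genes of these pathways, listed by complex, are set against the 32.8% lower and 32.1% higher of all genes tested at E16.5 against E9.5, or 24.6% and 26.5% in the 13 libraries. Of 35 further centromere and kinetochore genes, 31 were lower and 2 higher (Cenpm at 0.56 and Cenpx at 0.39) at E16.5 against E9.5, with a median log2 fold change of -0.68; in the 13 libraries 27 were lower and 1 (Cenpm) higher. The largest were Spdl1, which recruits dynein to kinetochores, at -1.27 ± 0.08 (SE), and Mis18a, which licenses CENP-A loading, at -1.16 ± 0.09 (SE) (edgeR adjusted p = 4.5e-11 and 7.2e-10). Of 27 further spindle genes, 25 were lower and 1 higher (Haus8), with a median of -0.68, and in the 13 libraries 21 were lower and 2 higher (Haus8 and Numa1). In the 18 libraries they were led by the augmin subunit Haus6 at -1.45 ± 0.10 (SE) and the importin Kpna2 at -1.21 ± 0.06 (SE) (edgeR adjusted p = 1.5e-10 and 4.3e-12). Haus6 and Haus8 belong to the same complex, and the latter was higher by 0.69. Of 16 further condensin and cohesin genes, 13 were lower and none higher, with a median of -0.50, and Smc3 (-0.87) and Pds5a (-0.82) had the largest values. Of these 16, 9 were lower and 1 (Mau2) higher in the 13 libraries.

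Of 17 genes of the anaphase-promoting complex and its regulators, 9 were lower and 4 higher (Anapc5, Anapc11, Anapc13 and Anapc16), with a median of -0.33, the same counts as in the 13 libraries. The share called, 13 of 17, stands beside 64.9% of all genes. The small subunit Anapc13 was higher by 1.33 ± 0.24 (SE) and the inhibitor Fbxo5 (EMI1) was lower at -1.05 ± 0.08 (SE) (edgeR adjusted p = 0.0002 and 1.3e-09). Of 10 further CDK1 regulators, 7 were lower and none higher, with a median of -0.48, Ccnf, a cyclin-like substrate receptor, being at -1.37 and Cdc25a at -0.999. A list of 17 genes held the MuvB and DREAM complexes, their partners, and Nfya, Nfyb and Nfyc of NF-Y, which binds the CCAAT box. Of these 17, 10 were lower and 4 higher, with a median of -0.32, and in the 13 libraries the median was -0.12. Mybl2, the B-MYB subunit of the activating complex, went from 91.5 ± 19.6 (SD) CPM with n = 3 to 24.7 ± 1.32 (SD) CPM with n = 4, a log2 fold change of -1.89 ± 0.11 (SE). Rbl2, which encodes the p130 subunit of the repressing DREAM complex, went from 12.96 ± 1.98 (SD) to 51.9 ± 2.98 (SD) CPM with the same n, a log2 fold change of 2.001 ± 0.11 (SE) (edgeR adjusted p = 8.3e-12 and 9.8e-12). Mybl2 and Rbl2 thus moved in opposite directions, and their libraries of E9.5 and E16.5 did not overlap. This contrast is of 2 genes only and does not describe the activating and repressing complexes as a whole. On the same list E2f5 (-1.36), Tfdp1 (-0.94) and E2f4 (-0.72) were among those called lower in the 18 libraries. Mybl1 (0.63), Tfdp2 (0.31) and Lin52 (0.27) were called higher in the 18 libraries, and Rbl1 (0.051) was not called. In the 13 libraries the values of Mybl1, Tfdp2, Lin52 and Rbl1 were 0.52, 0.52, 0.22 and 0.12. Those of Mybl2 and Rbl2 were -1.54 and 2.275 there.

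Some counts may be shared with other loci. Exons of 12 of the 43 genes overlap another annotated gene, by over 10% of their length in 5: Ccna2, Cdc25c, Kif4, Ncapg and Ube2c. Whether the counting used strand is not given in the sources used here. Ccnb1 has near-identical processed copies, of which Ccnb1-ps and Gm12856 drew 553 and 166 counts over all libraries, against 114604 for Ccnb1.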

How the data were processed

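Per the labels' protocols, RNA was taken from dissected embryonic hearts with the RNAqueous-Micro kit and sequenced after standard Illumina library preparation. The authors deposited, for each of the 18 libraries, whole-number read counts per Ensembl gene identifier, not normalized. Per the submitters' processing notes the tools were featureCounts, Subread 1.5.2, STAR 2.5.2b and Trimmomatic 0.36, and the build mm10 (GRCm38); strand setting and annotation release: not given in the sources used here. Symbols, coordinates and exon lengths were taken from GENCODE M21 (GRCm38), which held 49056 of the 49315 identifiers, and counts without a symbol made up 0.0238 to 0.0388% of a library.

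From the counts, edgeR 4.0.16 (R 4.3.3, limma 3.58.1) was used with TMM factors, its expression filter by stage, and a robust quasi-likelihood fit of stage over all 18 libraries; p-values were adjusted by Benjamini-Hochberg over all 18885 genes tested, with a threshold of 0.05. The standard errors of the log2 fold changes were derived from the test. Each is the size of the log2 fold change over the square root of the quasi-likelihood F statistic. Alternatives were DESeq2 1.42.0, scaling by RLE or by library totals, all genes unfiltered or those with 10 CPM in 3 libraries, the stages compared alone, replicate number as a block, the libraries that stood apart left out, used alone or as a term, and each replicate left out. No libraries were identical: 24 replicate pairs differed by a chi-square per degree of freedom of 6.06 to 79.8. The members, gene lists and tests were chosen with earlier results of these data known. Values in every library are given for the members with the largest and smallest change of E16.5 against E9.5 in each role, for those not called there and for those called against the direction of most; Ccnb1 and Mki67 were added after their values were seen. Of other pathway lists, the 2 genes with the largest change are named, and other names serve small counts. At these depths 3 counts are at most 0.0976 CPM, and no interval on a single level is given. Over all genes the chi-square values above exceed what counting error alone gives. For single genes the spread of 3 or 4 libraries can fall below counting error. Examples at E9.5 are the SD of 0.24 CPM of Cdc25c and the SD of 0.017 of the ratio of Cdc25b to Cdc25c.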

Additional observations from a re-analysis of the deposited data

Results flagged for a closer look

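In groups of 4 libraries, the highest or lowest library of a gene was set against the nearest of the others, and named where that gap, as a share of the group's range, exceeded Dixon's critical value. Of 129 such groups 8 passed, and chance alone gives about 1 in 20. At E16.5, replicate 4 was the odd library for 4 genes: it was highest for Bub3 (106.1 CPM, nearest 92.4), Spc25 (64.9 CPM, nearest 60.8) and Pttg1 (29.1 CPM, nearest 24.7) and lowest for Smc4 (179 CPM, nearest 211). Bub3 also had its lowest library far from the rest at E10.5 (replicate 4, 120.7 CPM, nearest 127.3) and its highest at E12.5 (replicate 4, 121.6 CPM, nearest 106.7). Cdc25b was highest in replicate 3 of E12.5 (72.1 CPM, nearest 50.9), and Kif22 lowest in replicate 2 of E12.5 (65.1 CPM, nearest 69.9). Of these libraries, replicate 4 of E12.5 is among those that stood apart.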

How the results depend on the processing

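Of 39 calls at E16.5 against E9.5, 37 were kept in all 16 alternatives; Nuf2 was lost in 10 and Mki67 in 1, and Ccnb2 was called with library totals only (-0.19, adjusted p = 0.025). Counts of the 43 called moved by over 1.5 times as follows. With library totals only, 3 were called at E14.5 against E12.5 (9 in the fit reported) and 30 at E16.5 against E14.5 (13), where all genes shifted by a median of -0.15. Without a filter the last step held 6, and with only the 2 stages compared the E14.5 step held 3. In the 13 libraries the E10.5 step held 2 (11) and the E14.5 step 4, and within the libraries that stood apart the E12.5 step held 20 (32). Without single replicates, the counts ran from 7 to 10 at E10.5, 26 to 31 at E12.5, 4 to 12 at E14.5, 1 to 17 at E16.5 against E14.5, and 38 to 39 at E16.5 against E9.5. The E10.5 step held 7 without replicate 3 of E9.5 or without replicate 1 or 2 of E10.5. The E14.5 step held 4 without replicate 1 or 4 of E12.5 or replicate 3 of E14.5, and 5 without replicate 2 of E14.5. The last step held 7 without replicate 1 of E16.5 and 6 without replicate 4. Smc4 reversed at the E10.5 step within the libraries that stood apart, to 0.16 with an adjusted p of 0.043 from -0.015. The causes were not tested.

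The replicate numbers showed no clear pairing of the libraries: of 33 pairs with the same number, 8 had a correlation of their deviations above 0.1, with a median of -0.020. These deviations still hold the split of the libraries that stood apart, so a weaker pairing could not be seen. With the number as a replicate block, 11, 31, 6, 10 and 39 of the 43 were called in the 5 comparisons, and DESeq2 called 12, 32, 12, 14 and 39. Called genes among all tested also moved: 3446 at the E10.5 step became 1215 in the 13 libraries, 6460 within the libraries that stood apart and 2260 without replicate 3 of E9.5; 2803 at the E14.5 step became 1771 without replicate 3 of E14.5; 3562 at the last step became 2058 and 2225 without replicates 1 and 2 of E14.5.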
